A study of Mus musculus with 12 samples.

Results

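Gene expression in the mouse amygdala was compared between mice that had gone through immobilization and fear conditioning and mice that had stayed in the home cage. The comparison used 8 of the 12 arrays of the study, chosen by their titles: 4 arrays from immobilized and fear-conditioned mice (IMO_FC), with tissue taken 2 h after the conditioning, and 4 arrays from home-cage mice (HC). All mice were C57Bl/6J males aged 10 weeks, and the tissue was bilateral amygdala taken with a 1 mm punch. The labels give no stressor duration, no interval between immobilization and conditioning, and no transgene or drug for either group. Since both procedures separate the groups, an effect of immobilization cannot be told apart from one of conditioning in these 8 arrays. Each array carries its own label, but nothing says that each stands for a separate animal, and the spread behind the p-values may be technical.

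Immobilization is a strong stressor in rodents that releases corticosterone from the adrenal glands, and corticosterone enters the brain and acts through the glucocorticoid receptor Nr3c1 and the mineralocorticoid receptor Nr3c2. The activated glucocorticoid receptor binds DNA elements beside genes such as Tsc22d3, Fkbp5 and Sgk1 and raises their transcription. Fear conditioning pairs a neutral cue with a foot shock, and the lateral, basal and central nuclei of the amygdala are needed to learn and express the association. Neurons that fire during learning switch on immediate early genes such as Fos, Arc and Egr1 for a short time.

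No probe differed between the groups after correction for multiple testing. Of 22320 probes tested with limma, 0 had a Benjamini-Hochberg adjusted p under 0.05 (0% of probes), the lowest adjusted p was 0.996, and 736 (3.3%) had an unadjusted p under 0.05, 315 of them (1.41%) higher and 421 (1.89%) lower in IMO_FC. The values of the 2 groups did not overlap for 551 probes (2.47%), 265 (1.19%) higher and 286 (1.28%) lower. Under median scaling the split leaned further to lower values, with 201 higher and 495 lower at unadjusted p under 0.05 and 139 higher and 351 lower without overlap. With detection p under 0.01 required on all 8 arrays the split turned, with 217 higher and 156 lower at unadjusted p under 0.05 and 159 higher and 137 lower without overlap. The median difference, IMO_FC minus HC, was -0.01 on the log2 scale over all probes, and 306 probes differed by more than 1. The genes below are therefore given by their values, and none of them passed the test.

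The arrays themselves differed. On IMO_FC 1, 39% of all probes were detected, against 47.5% to 50.7% on the other 7. Its signals had a Spearman correlation of 0.736 to 0.757 with the other arrays, whereas IMO_FC 2, 3 and 4 had correlations of 0.933 to 0.946 among themselves, as the plot of rank correlations shows. Each home-cage array was on average closer to those 3 arrays than to the other home-cage arrays, most widely so HC 3 (0.926 to 0.938 against 0.898 to 0.909). HC 4 had correlations of 0.893 to 0.904 with them and of 0.872 to 0.898 with its own group. The median SD over tested probes was 0.45 in IMO_FC, 0.23 in IMO_FC without IMO_FC 1, and 0.35 in HC. Without IMO_FC 1, limma again called 0 probes (lowest adjusted p 0.82), and 1146 (5.13%) had an unadjusted p under 0.05, 595 (2.67%) higher and 551 (2.47%) lower. Differences without IMO_FC 1 are given below for the genes the text turns on.

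**Figure D1:**
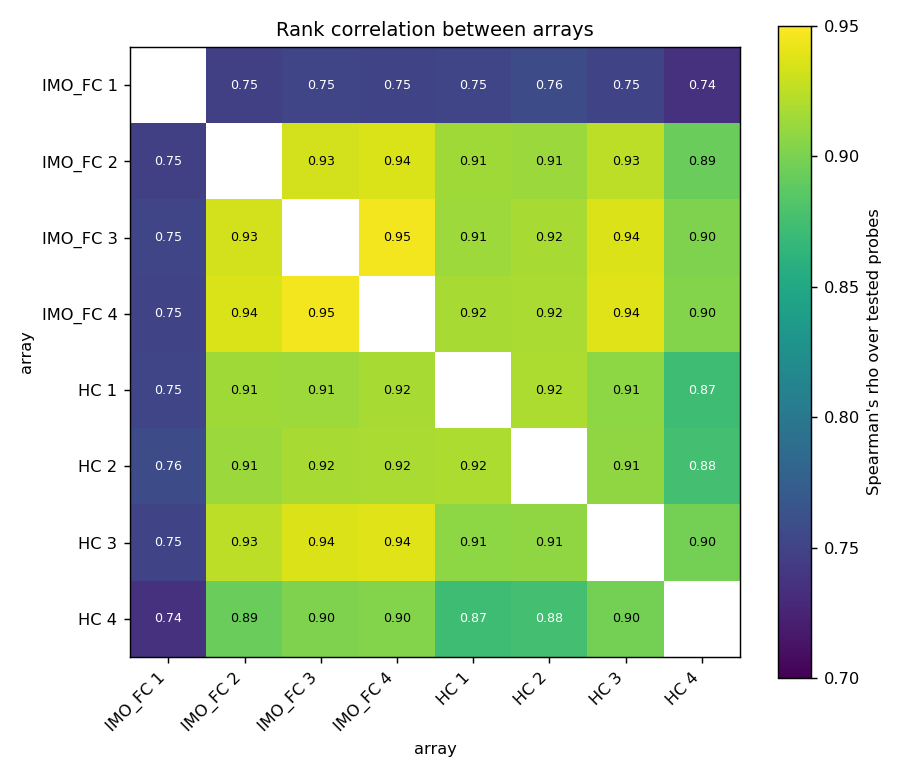
Spearman's rho between each pair of the 8 arrays over the 22320 tested probes, with arrays on both axes and the value printed in each cell. IMO_FC 1 has rho of 0.736 to 0.757 with the other 7 arrays, and all pairs of the others lie between 0.872 and 0.946.

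Markers of neurons and of brain regions were counted by whether they passed the detection filter. All 12 neuron markers were detected on at least 4 of the 8 arrays and could be tested, as were all 14 markers of basolateral and cortical excitatory neurons that the array holds and all 13 of central amygdala neurons. Of 18 markers of striatal spiny neurons on the array 16 were tested, and of 16 thalamic and hypothalamic markers 10 were. Over the whole array 22320 of 45281 probes passed the same filter. The central amygdala and striatal lists share Penk, Drd2 and Ppp1r1b. These counts therefore do not tell amygdala from neighbouring regions. In bulk tissue, fewer cells of a type and less RNA per cell cannot be told apart.

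Among the glucocorticoid genes, Tsc22d3 stood far from its home-cage level on its dimmer probe. Other lists also held distant members, such as Ttr of the choroid plexus at -2.95 and Msto1 of the mitochondrial list at 1.72. Tsc22d3 encodes the glucocorticoid-induced leucine zipper, which restrains inflammatory signalling. RefSeq (GRCm38.p6) holds 3 transcription start windows for Tsc22d3 on the minus strand of the X chromosome, each running from 250 bases before the start to 50 after it, and 1 for Hsd11b1 on the minus strand of chromosome 1. They are shown because both genes belong to corticosterone signalling and the account of it turns on them, and a window of Sgk1 on the plus strand of chromosome 10 is added because it holds the full receptor motif. The full motif searched was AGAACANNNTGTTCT, which reads the same on both strands, and the shorter one was either of its arms, AGAACA or TGTTCT, which are the same letters on opposite strands. Each arm is also part of the full motif. Capitals mark an arm.
Tsc22d3, chrX:140542619-140542918: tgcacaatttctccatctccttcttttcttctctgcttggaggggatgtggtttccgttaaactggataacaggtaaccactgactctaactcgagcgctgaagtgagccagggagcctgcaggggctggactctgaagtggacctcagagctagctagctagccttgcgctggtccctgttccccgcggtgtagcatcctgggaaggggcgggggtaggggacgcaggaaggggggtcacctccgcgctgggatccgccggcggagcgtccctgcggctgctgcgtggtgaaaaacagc
Tsc22d3, chrX:140548522-140548821: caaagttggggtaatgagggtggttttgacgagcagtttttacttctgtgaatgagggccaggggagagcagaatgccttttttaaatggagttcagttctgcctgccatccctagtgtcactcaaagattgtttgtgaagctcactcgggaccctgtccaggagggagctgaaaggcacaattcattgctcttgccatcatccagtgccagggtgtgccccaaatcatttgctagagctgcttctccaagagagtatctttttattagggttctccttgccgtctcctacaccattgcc
Tsc22d3, chrX:140600473-140600772: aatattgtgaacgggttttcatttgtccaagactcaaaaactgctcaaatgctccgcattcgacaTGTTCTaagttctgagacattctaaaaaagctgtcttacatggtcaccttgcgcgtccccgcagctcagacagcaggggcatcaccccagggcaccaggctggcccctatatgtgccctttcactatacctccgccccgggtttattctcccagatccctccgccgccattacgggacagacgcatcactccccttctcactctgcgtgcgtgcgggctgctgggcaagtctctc
Hsd11b1, chr1:193242311-193242610: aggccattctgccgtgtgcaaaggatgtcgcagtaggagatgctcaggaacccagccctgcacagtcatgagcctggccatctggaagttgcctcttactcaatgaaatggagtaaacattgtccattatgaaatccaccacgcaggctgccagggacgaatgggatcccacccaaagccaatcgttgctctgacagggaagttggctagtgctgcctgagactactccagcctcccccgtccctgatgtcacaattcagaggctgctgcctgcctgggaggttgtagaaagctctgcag
Sgk1, chr10:21993640-21993939: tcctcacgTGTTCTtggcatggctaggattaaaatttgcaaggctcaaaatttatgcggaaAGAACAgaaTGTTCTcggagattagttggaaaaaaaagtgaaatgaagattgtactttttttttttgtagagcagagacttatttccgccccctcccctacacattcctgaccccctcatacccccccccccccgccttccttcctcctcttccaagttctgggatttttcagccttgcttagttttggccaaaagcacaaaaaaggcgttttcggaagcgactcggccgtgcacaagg

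The last Tsc22d3 window listed holds 1 arm, at position -185 relative to the start, and the windows of Tsc22d3 hold no full motif. The Hsd11b1 window holds neither. The Sgk1 window, 1 of 6 for this gene, holds 3 arms, a pair of which form the full motif. Of all 32851 RefSeq windows of the same length, 6233 (19%) hold an arm and 3 hold the full motif. Of the 38 windows of 26 tested genes of the glucocorticoid list, 7 (18.4%) hold an arm, a share close to that of all windows, and 1 holds the full motif. A match describes the letters in the window only.

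On the first of its probes (ILMN_2701664), Tsc22d3 had normalized log2 signals of 7.17, 6.29, 6.95 and 6.66 on IMO_FC 1 to 4, and of 5.48, 4.98, 4.57 and 4.77 on HC 1 to 4. Every IMO_FC array lay above every HC array, and IMO_FC 1 was the highest of the 8. The difference was 1.82 (SE 0.28), a fold of 3.52, with an exact two-sided permutation p of 0.0286, the smallest that 4 against 4 arrays can give, and an adjusted limma p of 0.996. The probe was detected on all 4 IMO_FC arrays and on 2 of the 4 HC arrays, so the home-cage level is near background. The difference was 1.72 without IMO_FC 1 and 1.69 without HC 3.

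The brighter Tsc22d3 probe (ILMN_3150811) gave a smaller difference in the same direction. Its signals were 10.16, 10.21, 10.3 and 10.35 on IMO_FC 1 to 4, and 9.70, 9.80, 9.89 and 9.99 on HC 1 to 4. Again no HC array reached the lowest IMO_FC array. The difference was 0.41 (SE 0.18), a fold of 1.33, and 0.44 without IMO_FC 1. The 2 probes therefore give very different sizes for 1 gene, and which transcripts each reads was not tested.

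The other classic glucocorticoid targets lay closer to their home-cage levels than Tsc22d3 did on its dimmer probe. Fkbp5, a co-chaperone that lowers the receptor's affinity for hormone, had signals of 7.51, 7.89, 8.17 and 7.72 in IMO_FC and of 7.61, 7.55, 7.26 and 6.97 in HC. IMO_FC 1 lay below HC 1 and HC 2, and the other 3 IMO_FC arrays lay above all HC arrays. The difference was 0.48 (SE 0.24), and 0.58 without IMO_FC 1, slightly more than the 0.41 and 0.44 of the brighter Tsc22d3 probe. Sgk1, a kinase that regulates ion channels, differed by -0.24 (SE 0.32), with HC 1 the highest array at 9.47. On its brightest probe Per1, a clock gene that the receptor also induces, had a difference of 0.00 (SE 0.21), and on its dimmer probe one of -0.76 (SE 0.35), or -0.43 without IMO_FC 1.

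Of the 28 tested genes of the glucocorticoid list, 13 were higher and 15 lower in IMO_FC, with a median of -0.02, beside -0.02 over all 11249 genes, and 0 had an unadjusted p under 0.05 on their brightest probe, beside 3.24% of all genes. Among them, Plin4, a lipid droplet protein, differed by 0.75 (SE 0.42) and Cdkn1a, a cell cycle inhibitor, by 0.72 (SE 0.60). Mt2, a metal-binding protein, differed by 0.47 (SE 0.32), while its neighbour Mt1 differed by -0.08 (SE 0.26). At the other end lay Tgm2, a protein crosslinking enzyme, at -0.33 (SE 0.48). Without IMO_FC 1 Cdkn1a differed by 0.39, Mt2 by 0.25, Mt1 by -0.27 and Tgm2 by -0.55. Without IMO_FC 1 the list median was 0.06, with 17 genes higher, and 2 had an unadjusted p under 0.05, beside 4.74% of all genes.

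Hsd11b1 was lower in IMO_FC on all 3 of its probes. It encodes 11-beta-hydroxysteroid dehydrogenase type 1, which regenerates active corticosterone from its inert form inside cells. The probe with the largest difference (ILMN_2774160) read 5.90, 5.0, 5.72 and 5.87 on IMO_FC 1 to 4, and 6.92, 6.98, 6.18 and 6.81 on HC 1 to 4. The groups did not overlap there, and HC 3 was the lowest home-cage array and the nearest to IMO_FC. The difference was -1.10 (SE 0.28), with an exact permutation p of 0.0286 and an adjusted limma p of 0.996. The second probe gave -1.02 (SE 0.31), also without overlap. The brightest gave -1.04 (SE 0.36), with HC 3 below IMO_FC 1 and IMO_FC 4. That value was -1.16 without IMO_FC 1, -1.30 without HC 3, and -0.70 without HC 1 and HC 2.

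The receptors differed less. Nr3c1 read 5.72, 5.58, 6.33 and 6.44 in IMO_FC and 6.65, 6.62, 6.51 and 6.32 in HC. IMO_FC 4 lay above HC 4, so the groups overlapped, and the difference was -0.51 (SE 0.25). Nr3c2 differed by 0.15 (SE 0.39), and by -0.19 without IMO_FC 1, whose value of 8.47 was the highest of the 8. Fkbp4, the co-chaperone that replaces Fkbp5 when hormone binds, differed by 0.35 (SE 0.24). The plot of the glucocorticoid genes shows these values by array.

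**Figure D2:**
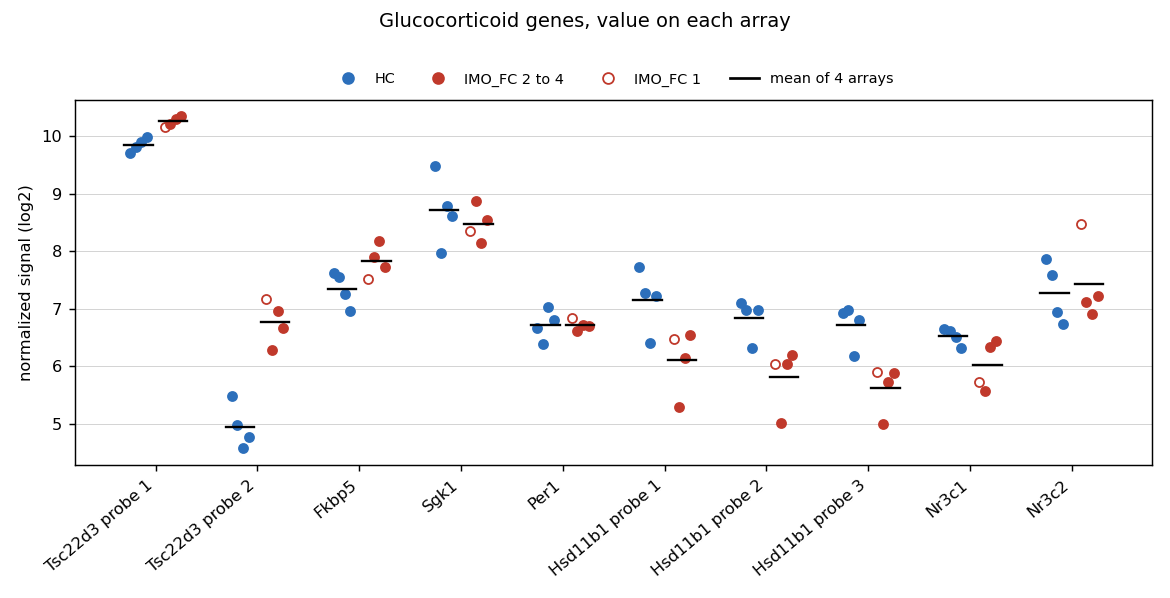
Normalized log2 signal on the vertical axis for Tsc22d3 (2 probes, brightest first), 3 of the other glucocorticoid targets, Hsd11b1 (3 probes, brightest first) and both corticosteroid receptors. Each point is 1 array, the open point is IMO_FC 1, and black lines are means of 4 arrays. Tsc22d3 is higher on every IMO_FC array at both probes, and Hsd11b1 has lower means at its 3 probes.

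The 10 genes of smallest unadjusted p among those higher in IMO_FC began with Tsc22d3. Msto1, a protein of mitochondrial shape and distribution, read 7.38, 6.02, 6.28 and 6.46 on IMO_FC 1 to 4 and 4.46, 4.76, 5.09 and 4.94 on HC 1 to 4. The groups did not overlap, IMO_FC 1 was highest, and only 1 HC array detected the probe. The difference was 1.72 (SE 0.31), a fold of 3.30, and 1.49 without IMO_FC 1. Cflar, an inhibitor of caspase activation by death receptors, read 6.87, 6.82, 6.91 and 6.28 against 5.74, 5.35, 6.05 and 5.46. All 8 arrays detected it, IMO_FC 4 was the lowest of its group, and the difference was 1.07 (SE 0.24). Rbak, a zinc finger protein that binds the retinoblastoma protein, differed by 0.80 (SE 0.20) on its brighter probe without overlap, and by 0.83 (SE 0.30) on its other probe with overlap.

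Several of these genes have probes that disagree. Tomm6, a small subunit of the mitochondrial import channel, differed by 1.84 (SE 0.40) on a probe that 2 HC arrays detected, and by 0.14 (SE 0.33) on its bright probe. Ube2f, an enzyme that attaches the ubiquitin-like protein NEDD8, differed by 1.08 (SE 0.20) and 0.82 (SE 0.19) on a pair of probes without overlap, and by -0.36 (SE 0.30) and -0.14 (SE 0.24) on the 2 brighter ones. Mob4, a subunit of a phosphatase complex, differed by 1.10 (SE 0.26) on a dim probe and by -0.01 (SE 0.20) on its bright one. A further Mob4 probe that no HC array detected was at least 1.39-fold higher, with means of 5.35 and 4.59. Oxsr1, a kinase of chloride cotransporters, differed by 1.01 (SE 0.24) on a probe that all arrays detected and by -0.14 (SE 0.27) on the brighter one. Zfp97, a zinc finger gene, differed by 1.06 (SE 0.25) on a probe that 1 HC array detected, and by -0.37 (SE 0.33) on its brighter probe, or -0.08 without IMO_FC 1.

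Heph, which encodes the copper-dependent iron oxidase hephaestin, gave opposite directions. On 1 probe it was detected on all 4 IMO_FC arrays and on none of the HC arrays, with mean signals of 5.72 and 4.50, which makes it at least 1.79-fold higher. A second probe was at least 1.82-fold higher in the same way, with means of 5.74 and 4.71 (IMO_FC first). Another was detected on no IMO_FC array and on all HC arrays, with means of 4.74 and 5.56, at least 1.48-fold lower. The brightest differed by -0.40 (SE 0.30). A probe that a group never detected was tested only if all 4 arrays of the other group detected it, so the all-or-none counts follow from the filter.

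Of the genes lower in IMO_FC, Kdm4a had the smallest p. It encodes a demethylase of histone H3. Its brighter probe read 4.68, 4.67, 5.02 and 5.51 on IMO_FC 1 to 4 and 6.60, 6.56, 6.2 and 6.52 on HC 1 to 4. The HC arrays lay close together and none reached down to IMO_FC 4, and 2 of the 4 IMO_FC arrays detected the probe. The difference was -1.5 (SE 0.24), and -1.43 without IMO_FC 1. A second, dim probe gave -0.09 (SE 0.32).

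Sepsecs, an enzyme of selenocysteine synthesis, had the largest difference of the 10 lower genes. It read 4.38, 5.22, 5.43 and 5.91 in IMO_FC and 7.62, 6.72, 7.47 and 6.52 in HC. IMO_FC 1 was the lowest array and the groups did not overlap. The difference was -1.85 (SE 0.37), and -1.57 without IMO_FC 1. Tmod1, which caps actin filaments, differed by -1.24 (SE 0.23) on a probe that 3 IMO_FC arrays detected, and Zfp672, a zinc finger gene detected on all 8 arrays, by -1.0 (SE 0.22).

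Ecm1, a secreted matrix protein, was detected on all HC arrays and on no IMO_FC array. The full HC detection follows from the filter, given none in IMO_FC. Its means were 4.55 in IMO_FC and 5.62 in HC, at least 1.54-fold lower. Ctnnal1, a catenin-like scaffold protein, differed by -1.44 (SE 0.33) on its brighter probe and by -0.03 (SE 0.24) on the other. Gldc, the glycine decarboxylase of the glycine cleavage system, differed by -1.19 (SE 0.28) on a dim probe and by -0.11 (SE 0.44) on its bright one. Cwc22, a splicing factor, differed by -1.28 (SE 0.25) and -0.58 (SE 0.32) on dim probes and by 0.09 (SE 0.39) on the brightest. The remaining members were Fzd10os, a transcript opposite Fzd10, at -1.05 (SE 0.24) on a probe that 2 IMO_FC arrays detected, and Pisd-ps2, a pseudogene that may share its probe with its parent gene, at -1.02 (SE 0.24).

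All 20 of these genes were chosen for small p-values, so their lack of overlap follows largely from that choice. Each had an exact permutation p of 0.0286 and an adjusted limma p of 0.996. Of the 20 probes, 9 were not the brightest of their gene, and for 6 of those 9 the brightest probe differed in the other direction. Over all genes with a probe at unadjusted p under 0.05, 442 of 721 other probes (61.3%) had the same direction, beside 56.6% over all probe pairs of a gene. The plot of the 20 genes shows each array.

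**Figure D3:**
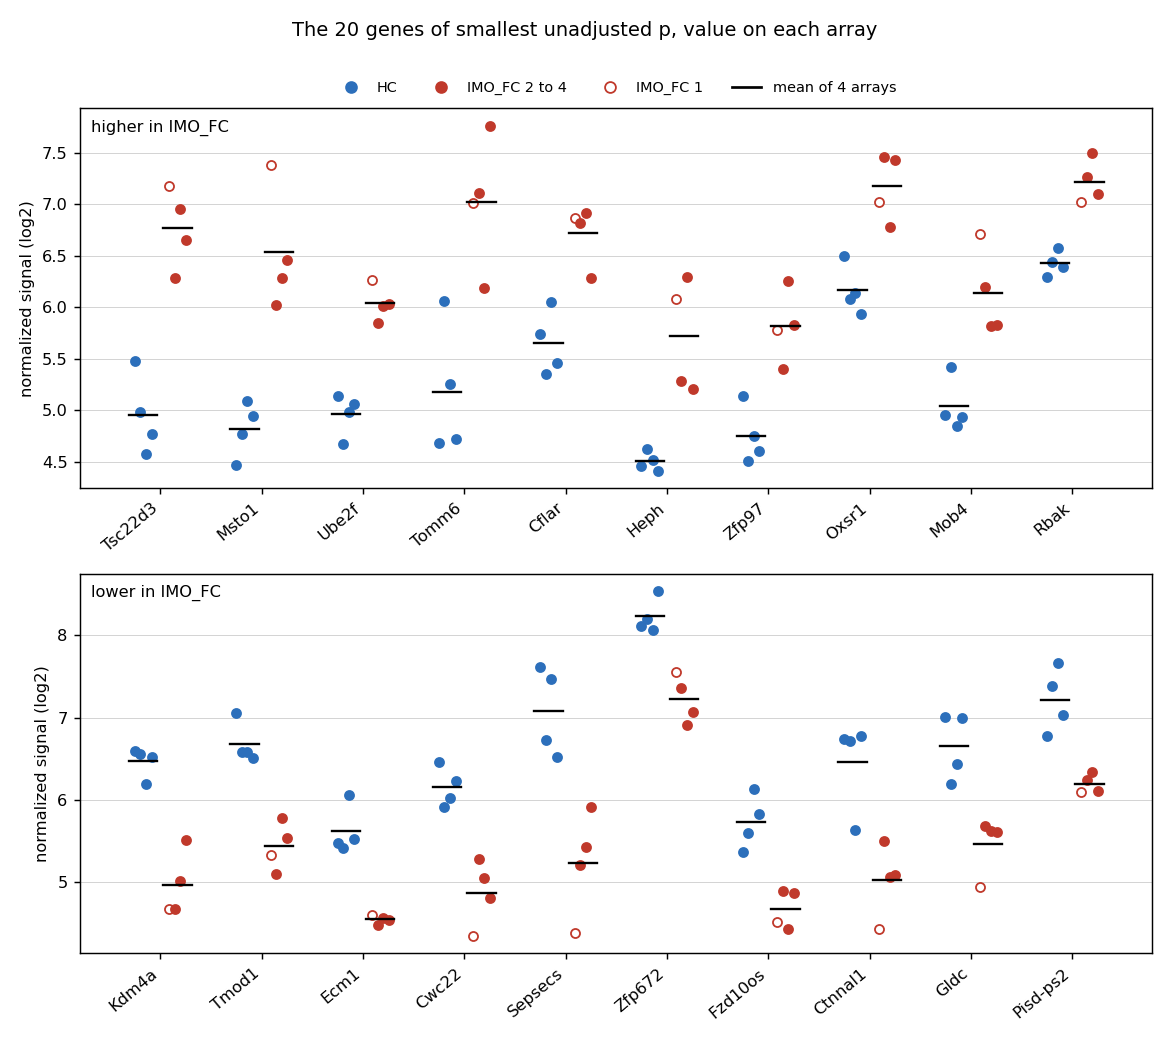
Normalized log2 signal on the vertical axis for the 10 genes of smallest unadjusted p in each direction, with 1 point per array, the open point for IMO_FC 1 and black lines for means of 4 arrays. The groups do not overlap for any of the 20, and the genes were chosen for small p.

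Of all probes, 3.3% had an unadjusted p under 0.05. Among 4674 genes with over 1 tested probe, 34 had 2 or more such probes in 1 direction. Genes with 3 or more numbered 5, and they were chosen after their values were seen. Hsd11b1 was one of them, and the other 4 were higher in IMO_FC. Cope, a subunit of the coat of vesicles that move from the Golgi back to the endoplasmic reticulum, differed by 0.64, 0.57 and 0.71 on 3 probes and by 0.38 (SE 0.25) on the brightest. S100pbp, which binds a calcium-binding S100 protein, differed by 0.99 (SE 0.30), 0.86 (SE 0.23) and 0.66 (SE 0.24). Prrt1, a partner of AMPA-type glutamate receptors, differed by 0.74, 0.79 and 1.00, and by 0.48, 0.57 and 0.75 without IMO_FC 1, its highest array. Galnt1, which starts O-linked sugar chains, differed by 0.76, 0.81 and 0.81 on 3 probes and by -0.04 (SE 0.31) on the brightest. Another 5 genes, Heph, Kmt2c, Prr5, Stx3 and Trim33, had probes at unadjusted p under 0.05 in both directions.

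Immediate early genes overlapped between the groups 2 h after conditioning. Fos read 6.28, 5.85, 5.60 and 6.69 in IMO_FC and 6.10, 5.86, 6.95 and 6.16 in HC, a difference of -0.16 (SE 0.32). Egr1 lay between 11.35 and 11.89 on all 8 arrays, with a difference of -0.02 (SE 0.20). Arc, which acts at synapses, read 9.23 on IMO_FC 1 and between 6.50 and 7.83 on the other 7 arrays. Its difference was 0.39 (SE 0.56), and -0.19 without IMO_FC 1, so its direction rests on that array.

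Fosb, a partner of the Jun proteins, read 6.87, 7.66, 7.81 and 7.85 in IMO_FC and 6.94, 5.86, 6.86 and 7.70 in HC. HC 4 lay among the IMO_FC arrays, and the difference was 0.71 (SE 0.39). Inhba, a subunit of activin, differed by 0.80 (SE 0.51), and by 1.26 without IMO_FC 1, where it read 6.10 against 7.46 to 8.42 on the other IMO_FC arrays. Of 16 tested activity-induced transcription factors 7 were higher (median -0.02), and of 20 activity-induced effectors 12 were higher (median 0.04). None of either list had an unadjusted p under 0.05, beside 3.24% of all genes. Without IMO_FC 1 each list had 1 higher gene at unadjusted p under 0.05, beside 4.74% of all genes, and Fosb, at 0.92, was that of the transcription factors. Bdnf, a neuronal growth factor, differed by -0.56 (SE 0.43) on its brightest probe and by 0.45 (SE 0.53) and 0.65 (SE 0.29) on the others. Without IMO_FC 1 these values were -0.20, -0.06 and 0.58.

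The opioid system, the subject of the study, showed no called difference. Oprl1, the receptor of the peptide nociceptin, read 6.53, 7.55, 7.82 and 7.20 on IMO_FC 1 to 4 and 8.08, 8.21, 7.52 and 7.48 on HC 1 to 4 at its brightest probe. IMO_FC 1 was the lowest, and IMO_FC 2 and 3 lay within the home-cage range. The difference was -0.55 (SE 0.32), with an exact permutation p of 0.2, and -0.30 without IMO_FC 1. Its other probes differed by -0.48 (SE 0.37) and 0.30 (SE 0.39), and by -0.26 and 0.24 without IMO_FC 1. Pnoc, the precursor of nociceptin, differed by -0.33 (SE 0.38), and by 0.01 without IMO_FC 1. Penk, the enkephalin precursor, differed by 0.51 (SE 0.48), and Pdyn, the dynorphin precursor, by 0.00 (SE 0.23).

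Among other neuropeptides, Tac2 was the member set apart by array. It encodes neurokinin B, which central amygdala neurons make. Tac2 read 6.71, 5.97, 6.57 and 6.41 on IMO_FC 1 to 4 and 5.82, 5.45, 4.73 and 5.43 on HC 1 to 4. The groups did not overlap, and HC 1 came nearest to IMO_FC 2. The difference was 1.06 (SE 0.28), 0.98 without IMO_FC 1 and 0.86 without HC 3, and its second probe gave 0.38 (SE 0.24), or 0.19 without IMO_FC 1. Of 15 tested neuropeptides 7 were higher, with a median of -0.05. Crh, the corticotropin-releasing hormone, differed by 0.28 (SE 0.41), Sst, somatostatin, by -0.07 (SE 0.25), and Npy, neuropeptide Y, by 0.15 (SE 0.25). Without IMO_FC 1 they differed by 0.69, -0.24 and 0.01.

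Prkcd, a kinase that marks a class of central amygdala neurons, was lower. It read 4.71, 4.80, 5.98 and 5.60 in IMO_FC, where 2 arrays detected it, and 6.79, 6.2, 6.60 and 5.47 in HC. HC 4 lay below IMO_FC 3 and IMO_FC 4, and the difference was -0.99 (SE 0.38). The 13 central amygdala markers had a median of 0.17, with 7 higher, and of 0.04 without IMO_FC 1. The 14 basolateral and cortical markers had a median of -0.05, with 5 higher.

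Over all lists, 794 genes of 43 lists were tested. Of these, 30 (3.78%) had an unadjusted p under 0.05, beside 3.24% of all genes, 12 of them higher (1.39% of all genes were) and 18 lower (1.86% were). The groups did not overlap for 18 (2.27%), beside 2.48% of all genes. Both shares lie near the background. Of 41 lists with at least 5 tested genes, 39 had medians from -0.16 to 0.18. Choroid plexus markers (-0.68) and meningeal markers (-0.30) lay lowest, each with 6 tested genes. The range is that of the lists other than these, so it leaves them out by construction. Among lists with fewer tested genes, ependymal markers (3 tested) had a median of -0.21 and blood markers (2 tested) one of 0.59.

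Each of 7 transmitter and signalling lists held 1 gene at unadjusted p under 0.05, and the lists of neuropeptide receptors, postsynaptic genes, vesicle release genes and endocannabinoid genes held none. These counts lie near the background of 3.24% of all genes. Gabbr2, a subunit of the metabotropic GABA receptor, differed by -0.79 (SE 0.35), and by -0.47 without IMO_FC 1, and was the 1 such gene of 17 GABA genes. Grm4, a presynaptic glutamate receptor, differed by 1.25 (SE 0.54), and by 0.87 without IMO_FC 1, and was the 1 such gene of 18 glutamate receptors. Kcnj6, a potassium channel opened by G proteins, differed by 0.75 (SE 0.33) on its brightest probe without overlap, and by 0.50 and -0.15 on the others. It was the 1 such gene of 33 potassium channels, and its brightest probe gave 0.47 without IMO_FC 1. Scn1a, a sodium channel of inhibitory neurons, differed by -0.62 (SE 0.27) without overlap, the 1 of 23 sodium, calcium and HCN channels. Chat, the enzyme of acetylcholine synthesis, differed by 0.97 (SE 0.39), and by 0.70 without IMO_FC 1, the 1 of 19 monoamine and acetylcholine genes. Gna13, a G protein subunit, differed by 0.76 (SE 0.33), and by 0.46 without IMO_FC 1, the 1 of 36 G protein and RGS genes. Dusp16, a phosphatase of MAP kinases, differed by 0.80 (SE 0.32), and by 0.55 without IMO_FC 1, the 1 of 34 genes of its list. IMO_FC 1 was the highest array for Grm4, Kcnj6, Chat, Gna13 and Dusp16, and the lowest for Gabbr2.

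Manf encodes a secreted factor induced by endoplasmic reticulum stress, and read 7.39, 7.83, 8.18 and 7.61 in IMO_FC and 7.05, 7.18, 7.0 and 7.36 in HC. The groups did not overlap, though IMO_FC 1 and HC 4 nearly met, and the difference was 0.61 (SE 0.23). Xbp1, a transcription factor of the same response, differed by 0.38 (SE 0.22), also without overlap, and by 0.21 without IMO_FC 1. Of 23 tested genes of the unfolded protein response 12 were higher, with a median of 0.04, and Manf was the 1 at unadjusted p under 0.05. Under median scaling the list median was -0.06, beside a median of -0.09 over all probes. Without IMO_FC 1, 16 were higher, with a median of 0.10, and 2 had an unadjusted p under 0.05, beside 4.74% of all genes.

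Rpl4, a protein of the large ribosomal subunit, differed by -0.88 (SE 0.21) without overlap, and by -0.41 (SE 0.29) on its other probe. It was the 1 of 55 ribosomal protein genes at unadjusted p under 0.05, beside 3.24% of all genes. Ndufc1, a subunit of respiratory complex I, differed by -0.62 (SE 0.26) and -0.66 (SE 0.21), and was the 1 of 69 oxidative phosphorylation genes, below that share. Psmd3, a proteasome subunit, differed by 1.27 (SE 0.39) on a probe that 1 HC array detected. Without IMO_FC 1, its highest array, it differed by 0.95, and it was the 1 such gene of 30 proteasome genes. Setd2, which methylates histone H3, differed by -0.47 (SE 0.19) without overlap. Setd2 and Kdm4a were the 2 such genes of 47 histone and DNA modifying enzymes. Tnfrsf1a, a receptor for tumour necrosis factor, differed by 0.63 (SE 0.24), the 1 of 11 inflammation genes. Its probe was detected on 3 IMO_FC arrays and 1 HC array, and HC 3 lay above IMO_FC 4.

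Glial and vascular lists had medians from -0.12 to 0.01. Pdgfra, the growth factor receptor of oligodendrocyte precursors, read 9.18 to 9.60 in IMO_FC and 9.78 to 10.01 in HC, a difference of -0.46 (SE 0.19) without overlap. Enpp6, which marks newly forming oligodendrocytes, differed by -1.34 (SE 0.56), with IMO_FC 3 lowest at 4.66. Cx3cr1, the microglial fractalkine receptor, differed by -0.78 (SE 0.33), with HC 4 among the IMO_FC arrays. Vwf, the clotting factor of endothelium, was detected on all HC arrays and no IMO_FC array, with means of 4.53 and 5.11, at least 1.08-fold lower. As for Ecm1, the full HC detection follows from the filter, given none in IMO_FC. Esam, an endothelial adhesion molecule, differed by 0.84 (SE 0.36), and by 0.54 without IMO_FC 1. Precursor markers had a median of -0.12, with 6 of 9 lower, and of -0.14 without IMO_FC 1, with 1 higher. Pdgfra and Enpp6 were the 2 of those 9 genes at unadjusted p under 0.05, beside 3.24% of all genes. Microglial markers had a median of -0.08 over 12 genes and endothelial markers one of -0.05 over 11. Astrocyte markers had one of -0.11, with 10 of 14 lower. Oligodendrocyte markers had one of -0.06 over 14 and mural markers one of 0.01 over 5.

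By their list medians, markers of choroid plexus and ependyma were higher on HC 1 and HC 2 than on HC 3 and HC 4. Meningeal markers did not split the home-cage arrays in this way. Ttr, the thyroxine carrier that choroid plexus makes in large amounts, read 11.52 and 11.62 on HC 1 and HC 2, and 8.08 and 7.75 on HC 3 and HC 4. On IMO_FC 1 to 4 it read 5.93, 7.38, 8.22 and 5.68. The first 2 home-cage arrays stood far above the other 6, and IMO_FC 3 lay above HC 3 and HC 4. The difference was -2.95 (SE 0.98), and -1.11 without HC 1 and HC 2. Aqp1, the water channel of the choroid plexus, read 8.14, 9.18, 6.63 and 4.39 on HC 1 to 4 and 4.48 to 5.60 on the IMO_FC arrays. It differed by -2.22 (SE 0.87), and by -0.64 without HC 1 and HC 2. The Aqp1 probe was detected on 1 IMO_FC array and 3 HC arrays, so its low values are near background. The lowest array was HC 4.

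Of 15 choroid plexus markers 11 were on the array and 6 were tested, and 5 of the 6 were lower in IMO_FC. Their median was -0.68, -0.42 without IMO_FC 1, -0.37 without HC 1 and HC 2, and between -0.87 and -0.11 over all settings tried. The median deviation of the list from each gene's mean was 0.63 on HC 1 and 1.17 on HC 2, -0.07 and -0.22 on HC 3 and HC 4, and between -1.34 and 0.01 on the IMO_FC arrays. Folr1, Otx2, Kcne2, Tmem72 and F5 were detected on too few arrays to be tested. Kl, a choroid plexus gene, went the other way at 0.30 (SE 0.24), or 0.11 without IMO_FC 1.

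All 6 tested meningeal markers of 14 were lower, with a median of -0.30, and of -0.28 without HC 1 and HC 2. Without IMO_FC 1 the median was -0.36, with 1 marker higher. The median deviation of the list was 0.24, 0.63, -0.002 and 0.41 on HC 1 to 4, so HC 4 lay above HC 1. On IMO_FC 1 to 4 it was -0.14, -0.07, -0.21 and -0.41. Igf2, a growth factor of meninges and choroid plexus, differed by -1.19 (SE 0.38), and by -1.09 without HC 1 and HC 2. Col1a2, a collagen chain, differed by -0.99 (SE 0.43), and by -0.45 without those arrays. Its probe was detected on 2 IMO_FC arrays and 3 HC arrays, and HC 3 lay below IMO_FC 3 and IMO_FC 4. Rsph1, a protein of motile cilia and an ependymal marker, read 6.18, 6.88, 7.93 and 7.91 on IMO_FC 1 to 4 and 8.74, 8.79, 8.03 and 8.16 on HC 1 to 4. HC 1 and HC 2 were again highest, the groups did not overlap, and the difference was -1.21 (SE 0.41), and -0.87 without HC 1 and HC 2. Of the 3 tested ependymal markers 1 was higher, and their median of -0.21 became 0.27 without those arrays.

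Dio3, the enzyme that inactivates thyroid hormone, was also highest on HC 1 and HC 2. It read 9.09, 8.56, 7.54 and 7.78 on HC 1 to 4 and 6.64, 7.48, 7.05 and 7.06 on IMO_FC 1 to 4. The groups did not overlap, with HC 3 just above IMO_FC 2. The difference was -1.18 (SE 0.36), and -0.60 without HC 1 and HC 2. Whether choroid plexus or meninges in the punch took part in the values of Dio3, Igf2, Rsph1 or Hsd11b1 was not tested. The levels of Hba-a1, a globin of red cells, were 9.37 on IMO_FC 1 and 7.79 to 8.65 on the others, a difference of 0.68 (SE 0.28), and 0.44 without IMO_FC 1.

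**Figure D4:**
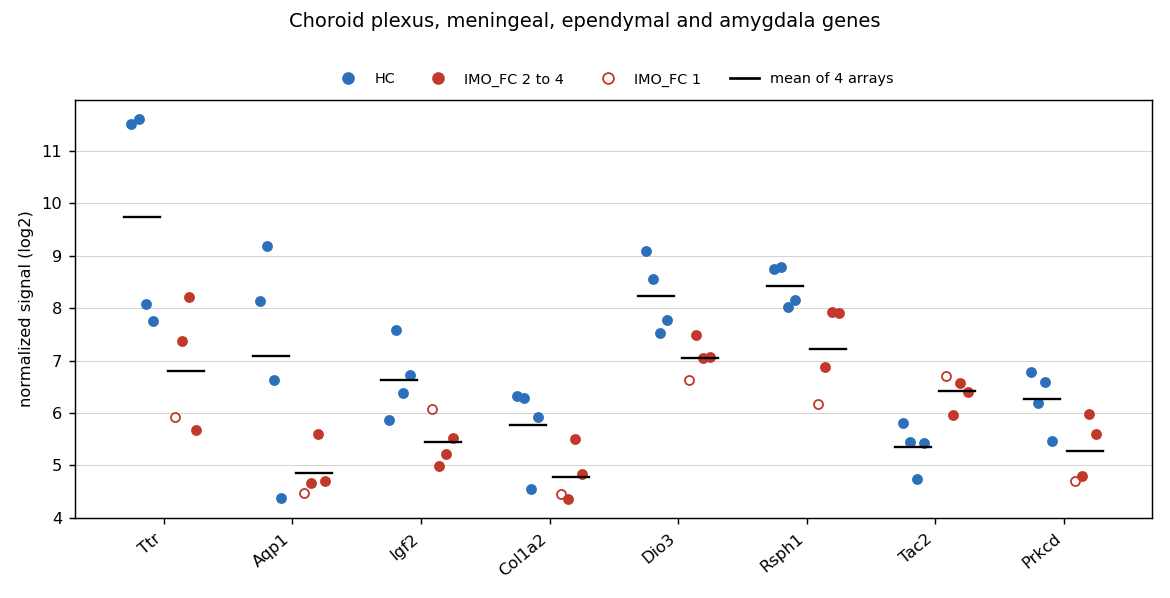
Normalized log2 signal on the vertical axis for choroid plexus (Ttr, Aqp1), meningeal (Igf2, Col1a2), thyroid hormone (Dio3) and ependymal (Rsph1) genes, and for Tac2 and Prkcd of the central amygdala. Each point is 1 array, the open point is IMO_FC 1, and black lines are means of 4 arrays. For Ttr, HC 1 and HC 2 lie at 11.52 and 11.62, above the other 6 arrays.

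The plot of list medians sets the lists side by side. Single genes within a list ranged far more widely than the medians of the lists did, as for MAP kinases and Dusp phosphatases, whose 34 genes ran from -1.18 to 0.80 around a median of 0.00. Leaving out IMO_FC 1 moved the neuron marker median from -0.02 to 0.10 and the heat shock median from -0.01 to 0.09. Thalamic and hypothalamic markers went from 0.18 to -0.04.

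**Figure D5:**
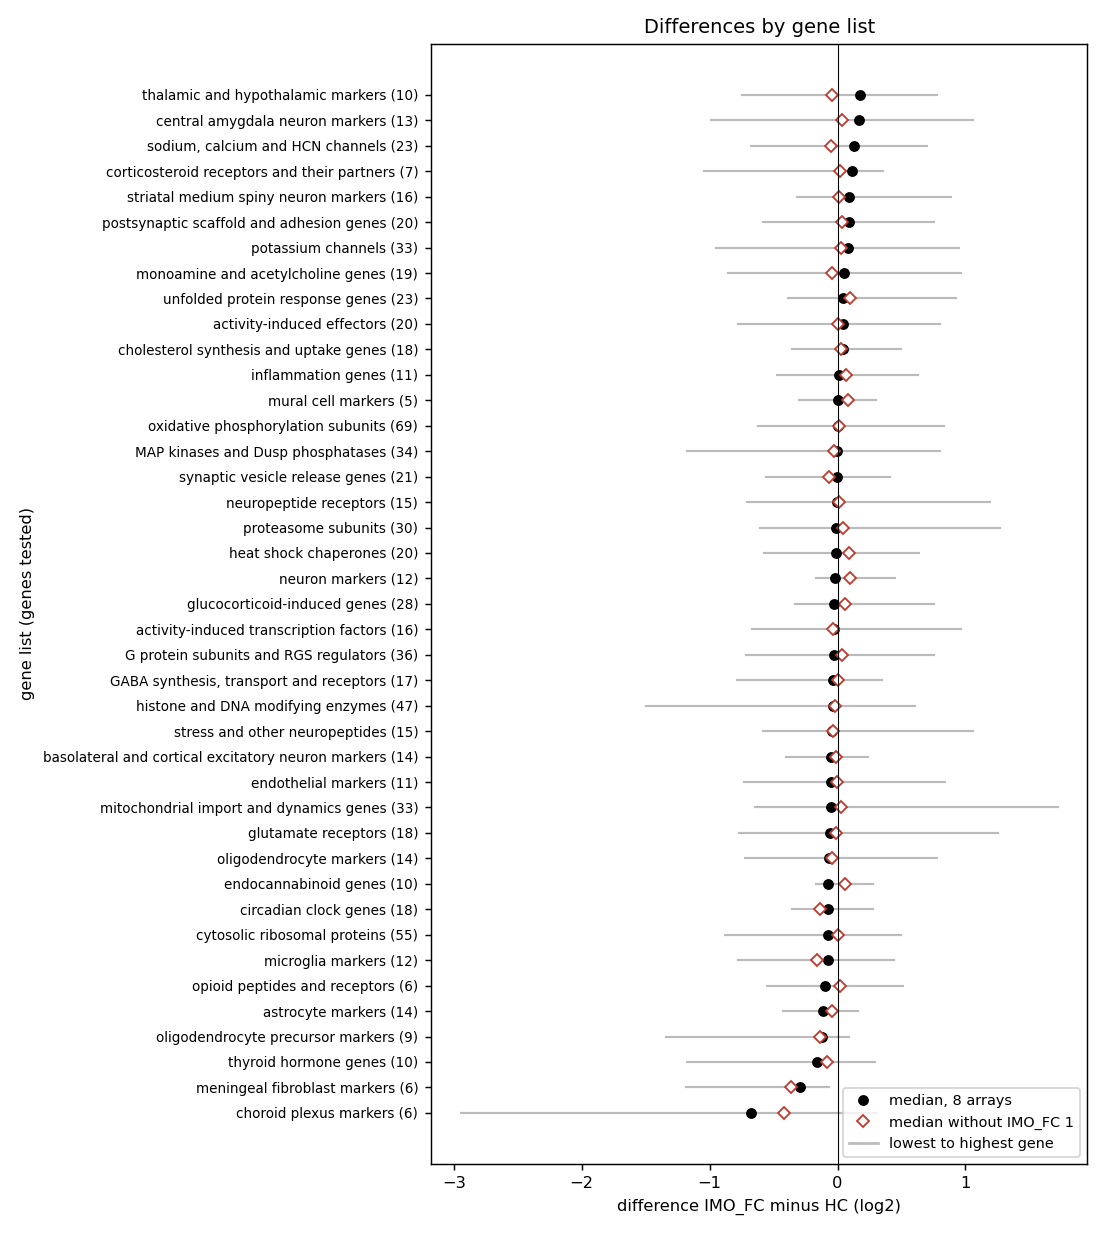
Difference IMO_FC minus HC on the log2 scale (horizontal axis) for the 41 gene lists with at least 5 tested genes (vertical axis, number tested in brackets). Black points are list medians over 8 arrays, open diamonds are medians without IMO_FC 1, and grey lines run from the lowest to the highest gene. Choroid plexus markers lie lowest at -0.68.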

How the data were processed

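The authors deposited unnormalized signal intensity with a detection p-value per probe, per the file headers, for 45281 probes of single-colour Illumina bead arrays. They also deposited a table of normalized intensity whose method is not given in the sources used here. Per the labels, RNA was purified with an RNeasy kit and labelled with biotin by a MessageAmp kit. Of the value columns, 0 were left unused.

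The 8 arrays were background corrected from the detection p-values with limma's neqc (offset 16), quantile normalized and log2 transformed. A probe was tested if its detection p was under 0.05 on 4 or more of these arrays. A probe that a group never detected thus needed detection on all 4 arrays of the other group. The filter kept 22320 probes. Of these 18604 had 1 current gene symbol, 5 had several and 3711 had none in the reference table, and probes without 1 symbol were not named. limma's linear model and moderated statistics (R 4.3.3, limma 3.58.1) were fitted to these 8 arrays alone, with 6 residual degrees of freedom, and Benjamini-Hochberg adjustment ran over the whole set of tested probes. Differences are IMO_FC minus HC with the standard error of that fit. Exact permutation p-values compare means over 70 arrangements, two-sided and unadjusted. Where a group detected a probe on none of its arrays, the fold is a bound, set against the higher of each array's lowest detected signal and the probe's own. Signal over background and the number of arrays limit the precision.

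Named were the 10 genes per direction of smallest p with predicted or unnamed transcripts passed over, Oprl1, the first 6 genes of each list, and up to 3 genes per list and direction at unadjusted p under 0.05. A list gene stands by its brightest tested probe. Cdkn1a, Inhba, Mt1, Mt2, Plin4 and Tgm2 were named after their values were seen, as were genes with several agreeing or opposed probes. The comparison, the 43 lists (1013 genes) and the tests were chosen with earlier results of these data known. The procedure was tested on simulated data whose noise was drawn separately for each value, without effects shared by a whole array. That test checks the calculation and does not bear on the absence of called probes. Promoter windows are RefSeq's (GRCm38.p6). Alternatives covered background, scaling, filters, array weights, the replicate block and each array left out. No slide is named, so none could be a block.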

Additional observations from a re-analysis of the deposited data

Results flagged for a closer look

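Within each group of 4 arrays, the farthest array was compared with the spread of the rest by Dixon's ratio for 136 sets of values, and 15 stood out. Chance flags about 1 in 20 such groups. Among genes, Cflar was low on IMO_FC 4 (6.28, others 6.82 to 6.91), Gldc was low on IMO_FC 1 (4.94, others 5.61 to 5.68) and Tmod1 was high on HC 1 (7.05, others 6.51 to 6.59). On HC 3, Ecm1 was high (6.06, others 5.42 to 5.52) and Ctnnal1 was low (5.64, others 6.71 to 6.77). The share of detected probes was low on IMO_FC 1, at 39% against 49.6% to 50.7% in its group.

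The other cases are list scores, each the median, over the list, of how far a gene lay from its own 8-array mean (log2). On IMO_FC 1 the score was low for histone and DNA modifying enzymes (-0.31), heat shock chaperones (-0.38), genes of the unfolded protein response (-0.28), proteasome subunits (-0.0328) and neuron markers (-0.33), and high for oxidative phosphorylation subunits (0.11). In the home-cage group, HC 4 was low for heat shock chaperones (-0.17) and for GABA genes (-0.0169), and HC 1 was high for glutamate receptors (0.11).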

How the results depend on the processing

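No setting called a probe at adjusted p under 0.05, and the 20 genes of smallest p kept their direction in each of the 19 or 20 settings that gave them a value, with a lowest adjusted p of 0.333 (Tsc22d3 and Msto1, array weights). That kept direction follows largely from the choice by small p, since the groups overlap for none of the 20 and the settings use the same arrays. The count at unadjusted p under 0.05, 736, became 1391 without a detection filter, 373 with detection p under 0.01 on all 8 arrays, 85 with the fit over all 12 arrays, 1372 with array weights, 387 with 1 probe per gene, and 1128 with IMO_FC 1 left out and no background correction. Leaving out single arrays gave 604 to 1146, the highest without IMO_FC 1. The count without overlap, 551, became 1090, 296 and 279 without a filter, with the stricter filter and with 1 probe per gene, 1336 with IMO_FC 1 left out and no background correction, and 2694 with HC 1 and HC 2 left out. Single arrays left out gave 983 to 1336, and with fewer arrays a lack of overlap is more frequent by construction. The cause of the other changes was not tested. The last 2 settings were chosen after seeing the data. With the replicate number as a block the count was 769, with 0 called. Same-numbered arrays had correlations of deviations of -0.02 to 0.09, and 3 of 8 arrays correlated best with their own number, so the numbers were not taken as pairs. Among list medians recomputed, 42 moved by more than 1 SD of the list's array scores and 818 did not. Low signals limit most of the genes with large differences, since many were undetected on some arrays of 1 group.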
